A study of Mus musculus with 8 samples.

Results

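In mouse liver, 264 of 113353 C/EBPα binding sites changed in opposite directions in 2 perturbations that are both known to act on C/EBPα. A site is a stretch of genome where the 200 bp peaks of any of 8 chromatin immunoprecipitation and sequencing (ChIP-seq) libraries overlap by at least 1 bp. A gain means a peak in both libraries of the treated group with none in the controls, and a loss is the reverse. The 264 sites were chosen by the presence and absence of called peaks, as those gained in one perturbation and lost in the other, so that presence is given as a description only. Gained in Trib1_LSKO and lost in AAV_Cebpa were 57 sites, which had a peak in both Trib1_LSKO and both AAV_Null libraries and in no other list. They are called Trib1_LSKO/AAV_Null sites here. Lost in Trib1_LSKO and gained in AAV_Cebpa were 207 sites, which had a peak in both Trib1_WT and both AAV_Cebpa libraries and in no other list, called Trib1_WT/AAV_Cebpa sites.

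There were 4 groups of 2 libraries, all from liver of C57B/6 mice aged 8 to 10 weeks, fed chow, fasted for 4 hours and injected intraperitoneally with an adeno-associated virus (AAV). Trib1_WT mice carried floxed Trib1 alleles (flox/flox) and received 1.5e11 genome copies (gc) of the empty vector AAV_Null, and Trib1_LSKO mice had the same alleles and received 1.5e11 gc of AAV_Cre. AAV_Null and AAV_Cebpa mice were wild type and received 1e12 gc of the empty vector or of the vector coding for C/EBPα. Vector promoters are not stated in the sources used, and the labels do not say whether the libraries of a group came from separate animals, so differences between them may be technical. The lists held 46348 to 80394 peaks, the longest in AAV_Cebpa replicate 2. Relative depth, read from the spacing of the signal values with AAV_Null replicate 1 as 1, was highest in AAV_Cebpa (1.85 in replicate 1, 2.27 in replicate 2) and Trib1_WT replicate 2 (1.93). The other libraries had 1.14 (Trib1_WT replicate 1), 1.17 (AAV_Null replicate 2), 1.18 and 1.28 (Trib1_LSKO). Peak lists hold no expression values, so liver identity, loss of Trib1 and the amount of C/EBPα were not measured in them. In whole tissue, binding in fewer cells and weaker binding per cell cannot be told apart.

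C/EBPα is a basic leucine zipper transcription factor that binds DNA as a dimer and is abundant in hepatocytes, where it acts on genes of glucose, lipid and nitrogen metabolism. Tribbles-1, the product of Trib1, is a pseudokinase that brings C/EBPα to the ubiquitin ligase COP1 for degradation. Loss of Trib1 and delivery of a C/EBPα vector are therefore both used to raise C/EBPα protein in liver.

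Opposite change was less frequent than change in the same direction, which was a gain in both perturbations at 1832 sites and a loss in both at 605. In the first comparison 3.15% of all sites were gained and 3.23% lost, and in the second 19.5% were gained and 5.33% lost. Sites with opposite directions were 0.233% of all sites. They made up 264 of the 2701 sites that changed in both comparisons, or 9.77% (95% exact binomial interval 8.68% to 11.0%, which covers counting of sites only). The 57 Trib1_LSKO/AAV_Null sites were 1.60% of the sites gained in Trib1_LSKO and 0.943% of those lost in AAV_Cebpa. The 207 Trib1_WT/AAV_Cebpa sites were 5.65% of the sites lost in Trib1_LSKO and 0.936% of those gained in AAV_Cebpa. With 2 libraries a group, an exact permutation test cannot pass a threshold of 0.05, so no site was tested by itself.

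The same sites can be set beside the other pairs of groups, without direction. This reuses the calls of the rule and is no independent evidence of rarity. Sites called in both libraries of exactly 2 groups, and in no library of the other 2, numbered 3731. Trib1_LSKO with AAV_Null was the least frequent of the 6 possible pairs of groups, with 1.53% of these sites, and Trib1_WT with AAV_Cebpa came next with 207 sites (5.55%). The pair of treated groups held 1832 sites, the 2 groups of the Trib1 experiment 760, the pair of control groups 605 and the 2 groups of the overexpression experiment 270. These counts follow from the lists and depend on their lengths.

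**Figure D1:**
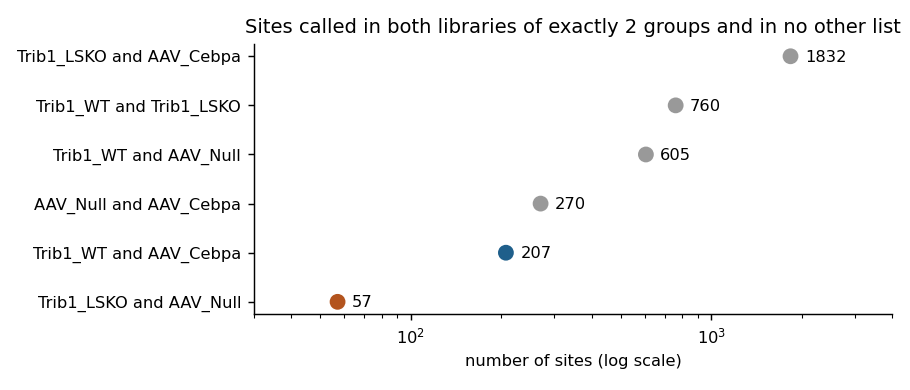
Number of sites (log axis) with a peak in both libraries of exactly 2 of the 4 groups and in no other list, 1 dot per pair of groups. The coloured dots are the pairs of opposite change, with 57 and 207 sites, the lowest of the 6.

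Most sites of opposite change were weak peaks in every list that held them. Strength is given as a percentile inside a list, in which 100 is the strongest peak. For the Trib1_LSKO/AAV_Null sites the median was 23.5 and 24.9 in Trib1_LSKO replicates 1 and 2 and 34.2 and 34.9 in the AAV_Null lists. The Trib1_WT/AAV_Cebpa sites had medians of 20.5 and 16.9 in Trib1_WT and of 25.6 and 41.8 in AAV_Cebpa. The lists differ in length, so the order of these medians does not show a difference in binding between groups. In sequence tags, the medians were 18, 20, 20 and 25 for the first class and 15, 22, 26 and 50 for the second, in the same order of libraries, against a weakest listed peak of 7 to 12 tags. In AAV_Cebpa replicate 2, the deepest library, 27 of the 207 sites held no more than 2 times the tags of the weakest listed peak. The number was 74 in AAV_Cebpa replicate 1 and 101 and 109 in the Trib1_WT lists.

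Strength varied widely within each class. All 4 percentiles were 50 or lower at 36 of the 57 Trib1_LSKO/AAV_Null sites (63.2%) and at 123 of the 207 Trib1_WT/AAV_Cebpa sites (59.4%). All 4 were above 50 at 4 sites of the first class (7.02%) and at 14 of the second (6.76%). Among the 1832 sites gained in both perturbations this share was 16.5%, and among the 605 lost in both it was 10.9%. A site strong in one list tended to be strong in the others. Spearman's rho between replicate lists was 0.758 for Trib1_LSKO and 0.603 for AAV_Null over 57 sites, and 0.774 for Trib1_WT and 0.880 for AAV_Cebpa over 207 sites. Between the 2 groups that hold a class it ran from 0.576 to 0.667 in the first class and from 0.430 to 0.521 in the second. These values describe sites chosen for having a peak in all 4 lists, and sites are not replicates.

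**Figure D2:**
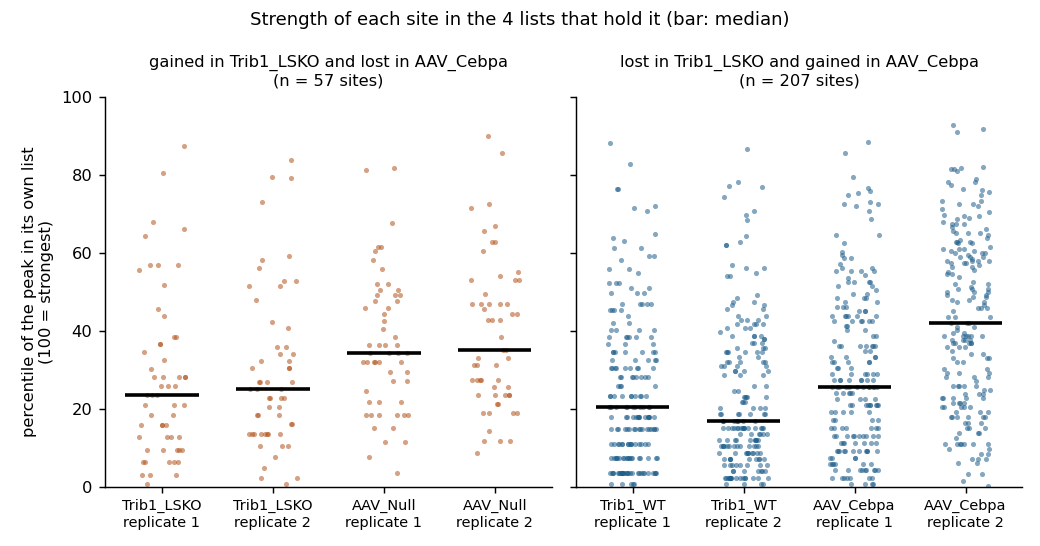
Percentile of the peak in its own list (vertical axis) for every site of opposite change, 1 dot per site, in the 4 libraries that hold each class; black bars are medians. Medians lie between 16.9 and 41.8, and few sites in any list exceed 80.

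The strongest sites of the 2 classes were direct neighbours of each other. In mm9 coordinates, the strongest Trib1_LSKO/AAV_Null site lay at chr14:73774104-73774332, and the strongest Trib1_WT/AAV_Cebpa site at chr14:73774464-73774695. Their midpoints were 361 bp apart and 131 bp separated their edges. At the first, the signal was 43.7 and 51.8 in Trib1_LSKO and 54.8 and 82.2 in AAV_Null, on the authors' scale of 1 value per peak. The second had a signal of 64.2 and 55.7 in Trib1_WT and of 37.5 and 43.2 in AAV_Cebpa. Every one of the 8 libraries thus had a single peak in this stretch, at a percentile of 79.0 to 89.9 in its list, and its position divided the libraries by the pattern of the rule.

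The same arrangement occurred at 2 other places. On chromosome 19, chr19:23560474-23560694 was the second of its class in strength, with a signal of 29.6 and 44.7 in Trib1_LSKO and of 54.0 and 67.9 in AAV_Null. Its neighbour chr19:23560754-23560989 was the third of the other class, with 41.5 and 40.7 in Trib1_WT and 33.4 and 42.2 in AAV_Cebpa, and the midpoints were 287 bp apart. On chromosome X, chrX:71499726-71499962 was the eighth of the Trib1_WT/AAV_Cebpa sites, with 34.8 and 31.6 in Trib1_WT and 20.6 and 36.2 in AAV_Cebpa. The site of the other class, chrX:71500019-71500242, lay 286 bp away and had 21.2 and 17.3 in Trib1_LSKO and 22.8 and 21.5 in AAV_Null. In percentiles, the first site ran from 55.3 to 72.6 and the second from 40.7 to 51.9. The order of the 2 positions was not shared. The Trib1_WT/AAV_Cebpa peaks had the higher coordinates on chromosomes 14 and 19 and the lower ones on chromosome X.

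Within a list, peaks this close were almost never called together. The nearest midpoints of any list were 263 to 376 bp apart, and 0.0219% to 0.0496% of neighbouring peaks in a list were less than 400 bp apart. A list could thus hold both sites of a mirror pair only in rare cases. The paired sites on chromosomes 19 and X were 287 and 286 bp apart. Only AAV_Null replicate 2 had any peaks that close, as the closest midpoints of every other list were at least 320 bp apart. Under the rule, a peak at one position goes with absence at the other. After the 3 pairs, the next distance between sites of the 2 classes was 24734 bp. When peaks up to 500 bp apart were joined, both sites of each pair left the classes. The classes then held 49 and 183 sites, of which 43 and 168 were original members.

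**Figure D3:**
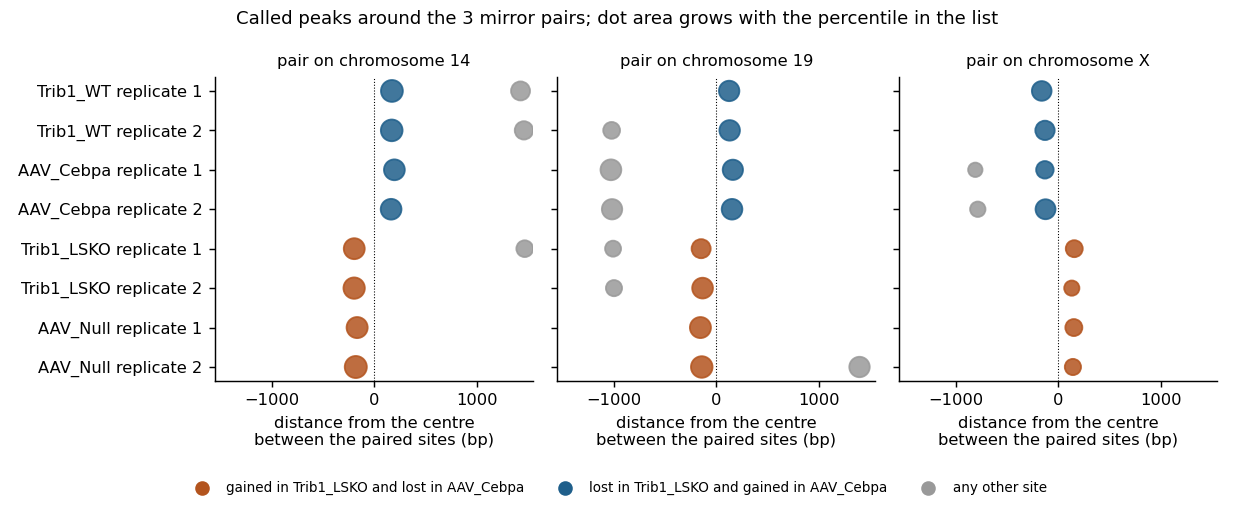
Called peaks within 1500 bp of the centre between the paired sites, for the pairs on chromosomes 14, 19 and X. Each row is a library, the horizontal axis is the distance in bp, dot area grows with the percentile in the list, and grey dots are peaks in other sites. All 8 libraries have 1 coloured peak in each panel, on one side in Trib1_WT and AAV_Cebpa and on the other in Trib1_LSKO and AAV_Null.

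A nearby peak in lists without the site was also found outside the mirror pairs. The counts that follow include the 3 members of each class in the pairs, all of which had such peaks in 4 lists. Of the Trib1_LSKO/AAV_Null sites, 12 (21.1%) had a peak of at least 1 such list within 500 bp of their midpoint, and 5 (8.77%) had one in all 4. Of the Trib1_WT/AAV_Cebpa sites, 17 (8.21%) had one in at least 1 list and 4 (1.93%) in all 4. The shares with a peak in at least 1 list were 3.71% for sites gained in both perturbations, 10.4% for those lost in both, 8.29% for those of the Trib1 experiment only and 5.56% for those of the overexpression experiment only. These differences between classes were not tested. All 4 Trib1_WT/AAV_Cebpa sites with such peaks in 4 lists were among the 10 strongest of their class, and 3 of them belonged to the mirror pairs.

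At some sites the neighbour was a peak common to all lists. At chr2:30320066-30320269, sixth in strength among the Trib1_WT/AAV_Cebpa sites, the signal was 36.1 and 26.8 in Trib1_WT and 30.5 and 46.6 in AAV_Cebpa. A site called in all 8 libraries lay 421 bp away, so the 4 lists that hold the member had 2 peaks there and the other 4 had 1. At chr13:38034752-38035034, second in that class, with 41.5 and 40.3 in Trib1_WT and 44.9 and 65.7 in AAV_Cebpa, a site in all 8 libraries lay 522 bp away. Among the Trib1_LSKO/AAV_Null sites, chr2:163237161-163237407 (13th) had one at 427 bp and chr4:61505119-61505340 (ninth) one at 772 bp. The latter had 18.0 and 25.6 in Trib1_LSKO and 21.3 and 34.6 in AAV_Null. In these cases the member was an additional peak beside a constant one.

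At other sites, the lists without the site had a close peak in one perturbation and none in the other. At chr12:102228101-102228310, the fourth of the Trib1_LSKO/AAV_Null sites, the signal was 55.3 and 37.5 in Trib1_LSKO and 22.1 and 21.5 in AAV_Null. The AAV_Cebpa lists had a peak 233 and 220 bp from its midpoint, while the nearest Trib1_WT peaks were 6540 bp away. Of the 12 Trib1_LSKO/AAV_Null sites with a close peak, 5 had it in all 4 lists, 3 in both Trib1_WT lists alone, 2 in both AAV_Cebpa lists alone and 2 in other combinations. Among the 17 Trib1_WT/AAV_Cebpa sites, 9 had a close peak in a single list, and none had it in both lists of one group with no such peak in the other group.

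Most members lay away from any peak of the lists that lack them. The nearest such peak was over 1000 bp away at 37 of the 57 Trib1_LSKO/AAV_Null sites (64.9%) and at 154 of the 207 Trib1_WT/AAV_Cebpa sites (74.4%). The median distance was 2170 bp (interquartile range 771 to 6157) in the first class and 4286 bp (958.5 to 12354) in the second. In the second class 60 sites had no such peak within 10000 bp, and in the first 10 had none. No peak of any other site, in any of the 8 lists, lay within 1000 bp at 34 sites of the first class (59.6%) and 144 of the second (69.6%). Within 1000 bp, peaks of lists without the site were more frequent near members than near sites of like classes. Within 500 bp this did not hold for the second class, with 8.21% against 10.4% for sites lost in both. A peak of a list without the site lay within 1000 bp at 35.1% of the first class and 25.6% of the second. The share was 12.7% for sites gained in both perturbations and 21.8% for those lost in both. For sites of the Trib1 experiment only it was 18.7%, and for those of the overexpression experiment only 13.3%. These differences were not tested.

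At 5 of the 10 strongest Trib1_WT/AAV_Cebpa sites, the lists without the site had no peak within 1000 bp. The lists do not give signal below their threshold, so an absent peak is not an absence of binding. At chr7:52781499-52781751, the fourth of the Trib1_WT/AAV_Cebpa sites, the signal was 35.5 and 37.1 in Trib1_WT and 33 and 46.6 in AAV_Cebpa. The nearest peak of a Trib1_LSKO or AAV_Null list was 9610 bp away. At chr17:56350155-56350395, the fifth, the signal was 51.5 and 41.8 in Trib1_WT and 20.6 and 36.2 in AAV_Cebpa. The nearest peak of a list without it was at 1887 bp. The seventh, chr1:72078942-72079187, had 29.4 and 32.8 in Trib1_WT and 29.7 and 41.2 in AAV_Cebpa. The ninth, chr7:26101584-26101799, had 26.8 in both Trib1_WT libraries and 30.9 and 34.9 in AAV_Cebpa. The tenth, chr19:37340289-37340503, had 25.4 and 33.6 in Trib1_WT and 19.8 and 40.2 in AAV_Cebpa. For these 3 the distance to a peak of a list without the site was 3716, 6711 and 1729 bp. At all 5 of these sites, every one of the 4 peaks was above the 50th percentile of its list, the lowest being at 53.4.

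The Trib1_LSKO/AAV_Null class had 3 members among its 10 strongest with no peak of a list without the site within 1000 bp. They lay on chromosomes 2 and 17. At chr2:10055633-10055934, the third in strength, the signal was 28.3 and 45.3 in Trib1_LSKO and 28.9 and 42.4 in AAV_Null, with no peak of a Trib1_WT or AAV_Cebpa list within 2660 bp. Its 4 midpoints spread over 102 bp, which is wider than the class median of 47 bp. At chr17:13837106-13837337, the fifth, the signal was 30.9 and 22 in Trib1_LSKO and 34.2 and 32.0 in AAV_Null, with a distance of 5300 bp. The sixth, chr17:64965699-64965921, had 18.7 and 22 in Trib1_LSKO and 25.1 and 41.1 in AAV_Null, with one at 1563 bp. The seventh, chr19:34573487-34573705, had 23.8 and 22.6 in Trib1_LSKO and 19.8 and 35.9 in AAV_Null, and the nearest such peak was at 961 bp. The eighth, chr19:27251167-27251416, had 23.8 and 26.2 in Trib1_LSKO and 21.3 and 26.1 in AAV_Null, with a peak of a list without it at 657 bp. The tenth, chr7:133417577-133417804, had 23.2 and 24.4 in Trib1_LSKO and 21.3 and 21.5 in AAV_Null, with a peak of 2 other lists within 500 bp. Of these 6 sites, those on chromosome 2 and at chr17:13837106 had all 4 peaks above the 50th percentile, and the other 4 had at least 1 peak below it.

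In both classes the peaks of a member lay close together, which the joining of overlapping 200 bp peaks favours. The midpoints of the 4 peaks spread over less than 100 bp at 46 of the 57 Trib1_LSKO/AAV_Null sites (80.7%) and at 193 of the 207 Trib1_WT/AAV_Cebpa sites (93.2%). The share was 97.1% for sites gained in both perturbations and 91.7% for those lost in both. For sites of the Trib1 experiment only it was 96.7%, and for those of the overexpression experiment only 88.9%. The Trib1_LSKO/AAV_Null share was the lowest of these. The sites had a median width of 247 and 239 bp. A site called in all 8 libraries was at a median distance of 7945 bp from the Trib1_LSKO/AAV_Null sites (interquartile range 2573 to 29044) and of 15581 bp from the Trib1_WT/AAV_Cebpa sites (6765 to 44186). The median was 15964.5 bp for sites gained in both perturbations and 14153 bp for those lost in both. It was 27474 bp for those of the Trib1 experiment only and 16892.5 bp for those of the overexpression experiment only. Over all 89035 sites that were not in all 8 lists, the median was 17955 bp.

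Sites of opposite change were scattered over the genome. The Trib1_LSKO/AAV_Null sites lay on 19 chromosomes, with the most on chromosome 13, which held 6 of them (10.5%, against 4.95% of all sites). The Trib1_WT/AAV_Cebpa sites lay on 20 chromosomes. Chromosome 4 held 19 (9.18%, against 6.26% of all sites) and chromosomes 1 and 5 held 18 each (8.70%, against 7.05% and 5.92%). Members of a class did not lie side by side. The closest pair of Trib1_WT/AAV_Cebpa sites, chr13:75914833-75915056 and chr13:75969479-75969738, was 54664 bp apart, and the closest pair of the other class, chr3:21719172-21719442 and chr3:21980906-21981148, was 261720 bp apart. Distances and chromosome shares were not tested.

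The members sit on a threshold, since a peak is either listed or not. Just inside it, the Trib1_LSKO/AAV_Null site with the lowest ranking peak, chr13:63446808-63447158, held 10 and 14 tags in Trib1_LSKO and 15 and 19 in AAV_Null. The corresponding Trib1_WT/AAV_Cebpa site, chr9:92027405-92027633, held 10 and 21 tags in Trib1_WT and 17 and 13 in AAV_Cebpa. Just outside the rule, 536 sites missed the pattern of the first class in exactly 1 library, 9.40 times the number of members. For the second class 1814 sites did so, 8.76 times the number of members. For the Trib1_LSKO/AAV_Null pattern, the single deviation was most often a missing peak in Trib1_LSKO replicate 1 (152 sites) or an extra peak in Trib1_WT replicate 2 (118 sites), the deepest of the Trib1 libraries. It was least often an extra peak in AAV_Cebpa replicate 1 (9 sites). The extra peaks had a median of 18 and 36.5 tags in Trib1_WT and of 24 and 38 in AAV_Cebpa. In replicate 2 of these groups the weakest listed peak held 11 and 12 tags, so extra peaks there were mostly not marginal. For the Trib1_WT/AAV_Cebpa pattern, the single deviation was a missing peak in Trib1_WT at 526 sites for replicate 2 and 392 for replicate 1. A missing peak in AAV_Cebpa accounted for 253 sites for replicate 1 and 30 for replicate 2. An extra peak in Trib1_LSKO accounted for 199 and 228 sites, with a median of 16 and 17 tags. One in AAV_Null accounted for 92 and 94, with a median of 16 and 15.5 tags.

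Leaving out a library adds exactly these sites to the class. The Trib1_LSKO/AAV_Null class then ran from 66 sites without AAV_Cebpa replicate 1 to 209 without Trib1_LSKO replicate 1. The Trib1_WT/AAV_Cebpa class ran from 237 sites without AAV_Cebpa replicate 2 to 733 without Trib1_WT replicate 2. The second class was the larger one without any 1 of the 8 libraries.

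**Figure D4:**
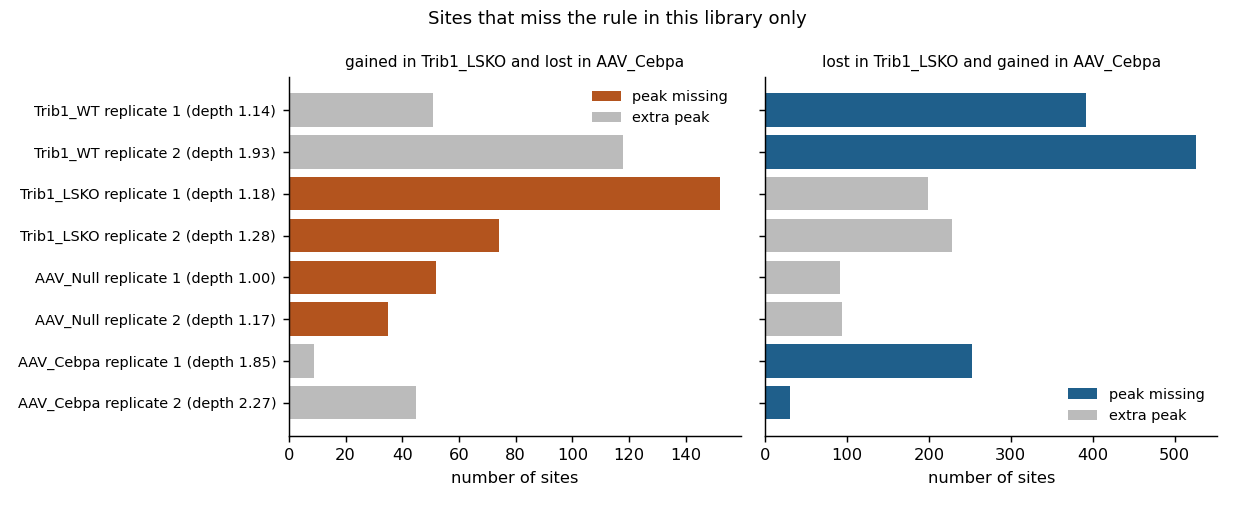
Number of sites (horizontal axis) that follow the pattern of a class in all libraries but the one named, with the relative depth of that library. Coloured bars are sites where its peak is missing, grey bars sites where it has an extra peak. The longest bars are missing peaks of Trib1_LSKO replicate 1 (152 sites, left) and of Trib1_WT replicate 2 (526 sites, right).

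The excess of Trib1_WT/AAV_Cebpa over Trib1_LSKO/AAV_Null sites was reversed with lists of equal length and kept in the other settings. Its cause was not tested. Of the libraries that hold the Trib1_WT/AAV_Cebpa class, 3 are the deepest of the 8 (1.93, 1.85 and 2.27). The 4 that lack it have a relative depth of 1.00 to 1.28. When each list was reduced to its strongest 46348 peaks, 74 sites followed the Trib1_WT/AAV_Cebpa pattern and 121 the Trib1_LSKO/AAV_Null pattern. Absence was then judged on the reduced lists too. Of the original members, 66 of 207 (31.9%) and 41 of 57 (71.9%) were still members. With the same signal minimum of 6.1 in every list, 154 and 64 sites followed the patterns, with 153 and 56 of the original members among them. With a signal of at least 10 in the 4 holding lists, 63 of 207 (30.4%) and 28 of 57 (49.1%) members remained, and with at least 20, 14 and 7. The strongest 50% of each list gave 129 and 19 sites, and only 14 and 4 of these were original members, since a weak peak then counts as absent.

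**Figure D5:**
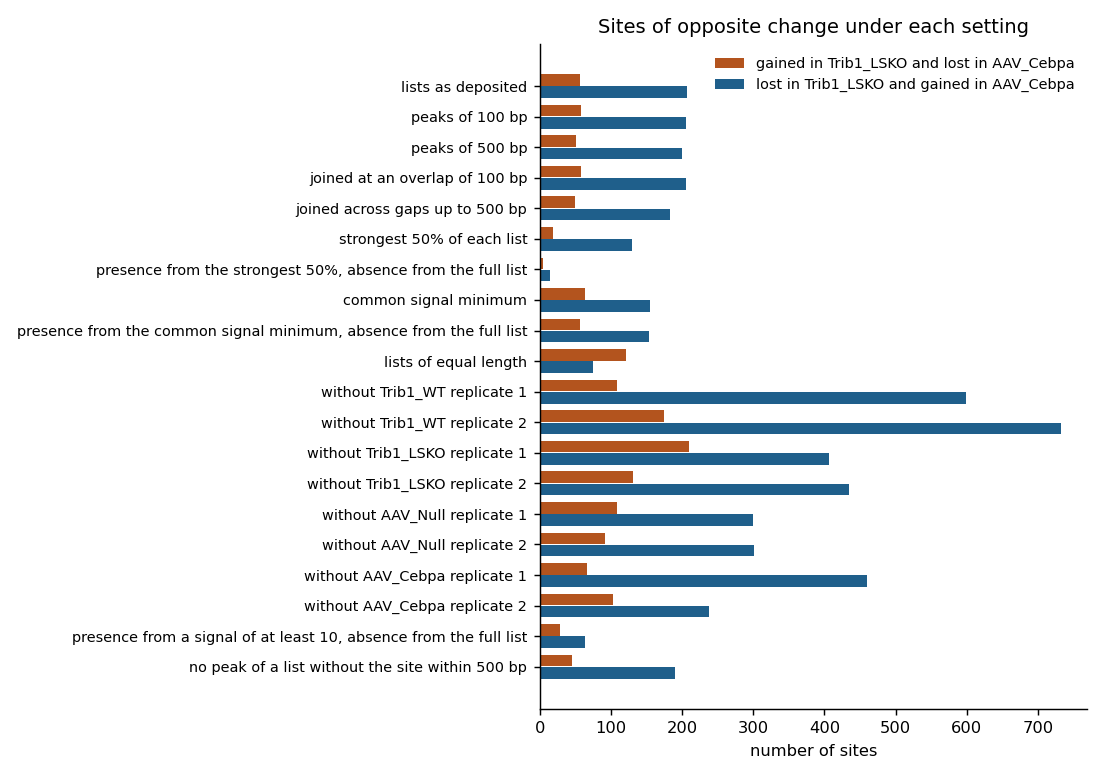
Number of sites in each class of opposite change (horizontal axis) under each setting (rows), with the lists as deposited on top. The Trib1_WT/AAV_Cebpa class (blue) is the larger under all settings shown except lists of equal length, where it has 74 sites against 121.

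Few members kept their pattern throughout. In 11 settings other than leaving out a library, 2 of the 57 Trib1_LSKO/AAV_Null sites and 7 of the 207 Trib1_WT/AAV_Cebpa sites were members each time. The 2 were the sites at chr2:10055633 and chr17:13837106 described above. The 7 comprised the 5 sites described above at chr7:52781499, chr17:56350155, chr1:72078942, chr7:26101584 and chr19:37340289. The 2 others, chr5:124022926-124023148 and chr13:75914833-75915056, were chosen after their values had been seen. The site on chromosome 5 had no peak of a list without it within 84810 bp. The paired sites on chromosomes 14 and 19, among the 3 strongest of their classes, remained in 8 of the 11 settings. They left the classes in the 3 that take neighbouring peaks into account. The settings with presence from the strongest 50% of each list kept only 4 Trib1_LSKO/AAV_Null and 14 Trib1_WT/AAV_Cebpa sites. No more than these could remain in all 11, so the sites that did were strong by the choice of settings.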

How the data were processed

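C/EBPα ChIP-seq was done on liver with antibody sc-61, after crosslinking in 1% formaldehyde, per the labels' protocols. The authors deposited 1 peak list per library, not pooled, each line with a position and a signal value. Bowtie, HOMER and build mm9 were used, per the submitters' processing notes; versions, thresholds, input and duplicate handling are not stated in the sources used. Signal values were whole multiples of 1 step per library (within 0.051) for 99.97% to 100% of the peaks in a list; tags are signal divided by that step, and relative depth is its inverse. Intervals cover counting error only.

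Peaks were joined into sites and ranked within lists with Python 3.11.15 and pandas 2.3.3, and the joining was tested on simulated data. Peaks were ranked within a list, but settings and counts with a signal minimum apply the same value to each list they use, whatever its depth. Distances run from a site's midpoint to a peak's midpoint. The 10 sites per class with the highest mean percentile over their 4 lists are described, with the closest pair of each class, the sites at the threshold, the mirror pairs and the sites that kept their pattern. The classes, lists and settings were chosen with earlier results of these data known. The reference tables are of build GRCm38.p6, so genes, motifs and sequences, though planned, were not used here, and sites carry mm9 coordinates, counted from 1.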

Additional observations from a re-analysis of the deposited data

How the results depend on the processing

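Of 73 recomputed values, 29 were the same and 44 moved; none is the result of a test. Counts were called the same within 1.5 times, the share of opposite sites inside its interval, and medians within the SD of replicate medians. In the order Trib1_LSKO/AAV_Null sites, Trib1_WT/AAV_Cebpa sites and share of opposite sites, the lists as deposited gave 57, 207 and 9.77%. The strongest 50% of each list gave 19, 129 and 7.86%, the same with absence judged on whole lists 4, 14 and 4.65%, and lists of equal length 121, 74 and 7.58%. A signal of at least 10 for presence, chosen after seeing the data, gave 28, 63 and 6.02%. The share was 7.98% with a common signal minimum and 8.25% when absence was judged on whole lists. Leaving out 1 library loosens the rule and gave 66 to 209 sites, 237 to 733 sites and 11.1% to 22.2%. Other joining widths, overlaps and gaps gave 49 to 58 and 183 to 205 sites. Leaving out sites with a close peak, also chosen after seeing the data, gave 45 and 190.

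Ranked only among peaks in sites called in both replicates, the median percentiles were 15.9 and 15.6 in Trib1_LSKO, 24.4 and 23.6 in AAV_Null, 12.2 and 9.15 in Trib1_WT, and 25.2 in AAV_Cebpa replicate 2. Ranked on the same chromosome, they were 23.5 in Trib1_LSKO replicate 2 and 33.3 and 34.2 in AAV_Null. No paired analysis was possible because the counts come from no test. Depth limits what a missing peak shows, since the weakest listed peak held 7 to 12 tags.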
